A study of Mus musculus with 17 samples.

Results

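The replicate numbers of 12 libraries of E11 cells, a mouse podocyte line, were compared: the 6 libraries numbered 4 and 5 against the 6 numbered 1 and 2, drawn from 17 in all. Every library came from E11 cells cultured on polydimethylsiloxane (PDMS), a silicone rubber. The surface was NT, without topography, RT, with round topography, or HF, with a high fractal topography derived from histological tracings of glomeruli of healthy tissue. Each surface gave 2 libraries to each side, and a library is named here by its surface and number (NT1, RT5). The labels give no treatment, time, batch or day, and attach no meaning to the numbers. The comparison therefore describes an unrecorded property that libraries of like number may share, with the surface held as a covariate. No label says whether replicates came from separate cultures, so the p-values reflect only how these libraries differ among themselves, and that may be technical variation. Expression was tested in 15807 of 56748 genes in the deposited table. The cells are 1 line, and its labelled identity was checked first. Over the 12 libraries, Wt1, Synpo and Podxl, which mark podocytes, lay at 93.5 to 117, 242 to 308 and 120 to 148 CPM, the counts scaled to the size of each library. Nphs1 (nephrin) lay at 3.08 to 6.43 CPM. Tcf21, a transcription factor of podocytes, was at 0 in all 12 libraries.

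Several of the genes that differed belong to the immediate early response and to its feedback. Immediate early genes such as Fos, Egr1, Jun and Junb encode transcription factors that are transcribed within minutes of a growth factor, serum or mechanical stimulus, from promoters that are already open and bound by SRF, CREB and related factors. Their messages turn over quickly, and the dual specificity phosphatases that they accompany (Dusp1, Dusp6) switch the mitogen-activated protein kinases off again. In podocytes the same kinases act downstream of integrins and growth factor receptors at the cell's attachment to the basement membrane. The sequences upstream of Fos, Dusp1 and Junb are printed because these 3 genes rose together in the libraries numbered 4 and 5. They are the 250 bases before each start in RefSeq (GRCm38.p6, whereas the submitters' notes name GRCm39 for the counts), at chr12:85473640-85473889 on the plus strand for Fos, chr17:26508473-26508722 on the minus strand for Dusp1 and chr8:84978749-84978998 on the minus strand for Junb. Capitals mark TGACGT, the core of the cAMP response element (CRE), found on either strand.
Fos: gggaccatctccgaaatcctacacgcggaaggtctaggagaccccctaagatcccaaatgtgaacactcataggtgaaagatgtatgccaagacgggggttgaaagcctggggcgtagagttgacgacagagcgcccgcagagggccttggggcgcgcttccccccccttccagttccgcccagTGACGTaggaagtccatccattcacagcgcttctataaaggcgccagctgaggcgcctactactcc
Dusp1: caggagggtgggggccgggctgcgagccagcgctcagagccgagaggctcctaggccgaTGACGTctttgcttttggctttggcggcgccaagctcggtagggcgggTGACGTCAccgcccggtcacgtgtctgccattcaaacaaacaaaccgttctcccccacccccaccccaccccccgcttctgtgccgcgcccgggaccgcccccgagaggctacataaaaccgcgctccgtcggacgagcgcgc
Junb: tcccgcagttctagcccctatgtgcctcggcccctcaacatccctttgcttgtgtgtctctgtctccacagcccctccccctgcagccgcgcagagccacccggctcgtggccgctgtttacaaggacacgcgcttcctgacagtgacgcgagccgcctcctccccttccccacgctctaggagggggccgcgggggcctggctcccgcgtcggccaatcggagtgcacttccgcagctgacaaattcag
The core is part of the full element TGACGTCA, which the Dusp1 window holds, so the searches overlap. RefSeq promoter windows were matched for 27 of the 41 genes called higher and 26 of the 55 called lower. The windows searched also ran past the start, beyond the 250 bases printed. The core stood in 4 of the 27 (Ccdc124, Dusp1, Fos and Irf2bpl) and in 2 of the 26 (Arl5b and Clk4), against 7.51% of all 32851 windows. A gene counted if any of its windows held a match, while the shares over all windows count single windows. The gene counts and these shares are therefore not like measures, for this and the other motifs. The full element stood in 2 of the 27 and in 2 of the 26, against 1.79% of all windows. The CArG box bound by SRF stood in none of either set, against 1.63%. The AP-1 site TGANTCA stood in 0 of the 27 and 3 of the 26 (7.81% of all windows), the E-box CACGTG in 1 and 2 (7.15%), and the STAT site TTCNNNGAA in 1 and 1 (8.30%). All were searched on both strands, and the directions were not compared by a test. A match is a run of letters and not a measured binding site.

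Total counts ran from 14.9 M to 24.1 M over the 17 libraries, with means of 16.2 ± 0.978 M (SD, n = 6) for numbers 1 and 2 and 18.2 ± 2.31 M (SD, n = 6) for numbers 4 and 5. None of 6 measures of depth and composition passed the threshold, by exact two-sided permutation within surfaces with Benjamini-Hochberg adjustment: adjusted p was 0.278 for total counts, 0.278 for the mitochondrially encoded share (2.22% and 2.13% of counts) and 0.278 for the ribosomal protein share (1.87% and 1.98%). The smallest p these 216 splits allow is 0.00926. The summed levels of tubule markers (1339 to 1518 CPM for numbers 1 and 2, 1260 to 1445 for 4 and 5) and mesangial markers (737 to 862 and 754 to 856) overlapped between the sides. Of the tubule markers, Cdh16 lay at 931 to 1029 CPM and Lrp2 at 271 to 484 CPM over the 12 libraries. Epcam, Cdh1, Aqp2 and Slc34a1 of the same set were at 0 in all 12. The 5 endothelial markers summed to at most 1.15 CPM, with Kdr at 0. Leukocyte markers summed to 40 to 59.1 CPM and 41.6 to 51.1 CPM, nearly all of it Csf1r, with Adgre1 and Cd3e at 0. In such bulk libraries fewer cells of a type and less RNA per cell cannot be told apart.

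With surface as a covariate, edgeR's quasi-likelihood test called 96 of the 15807 genes at a Benjamini-Hochberg adjusted p under 0.05, or 0.607% of those tested. Of these, 41 were higher in the libraries numbered 4 and 5 (0.259%) and 55 were lower (0.348%). The changes were small: the median absolute log2 fold change of the called genes was 0.29, and 15 reached 2-fold. In 66 genes (0.418% of those tested) all 6 CPM values of numbers 4 and 5 lay above all 6 of numbers 1 and 2, and in 74 (0.468%) all 6 lay below. Over the 1000 genes that varied most within surfaces, the number classes accounted for 16.4% of the within-surface variation (exact permutation p = 0.00926, the smallest that 216 splits allow). Any such split accounts for some of that variation, so not all of the 16.4% need belong to the number class. The split into low and high numbers was itself proposed with earlier results of these data known. The count of calls rested on libraries at the ends of the number range: without all 3 libraries numbered 1 it was 27, and without all 3 numbered 5 it was 8. Without 1 library it was 35 (RT1), 36 (RT5), 41 (HF1), 53 (HF5) or 56 (NT5), and it stayed between 69 and 121 for the other 7 removals. Of the 42 genes that passed and that the naming rules select or that were added, 7 passed without number 5 (Amotl2, Clcf1, Gapdh, Hist1h2bg, Id3, Mylip and Txnip) and 12 without number 1 (Cebpg, Clk1, Fos, Gadd45g, Gapdh, Hist1h2bg, Id1, Id3, Ier3, Junb, Mylip and Txnip).

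**Figure D1:**
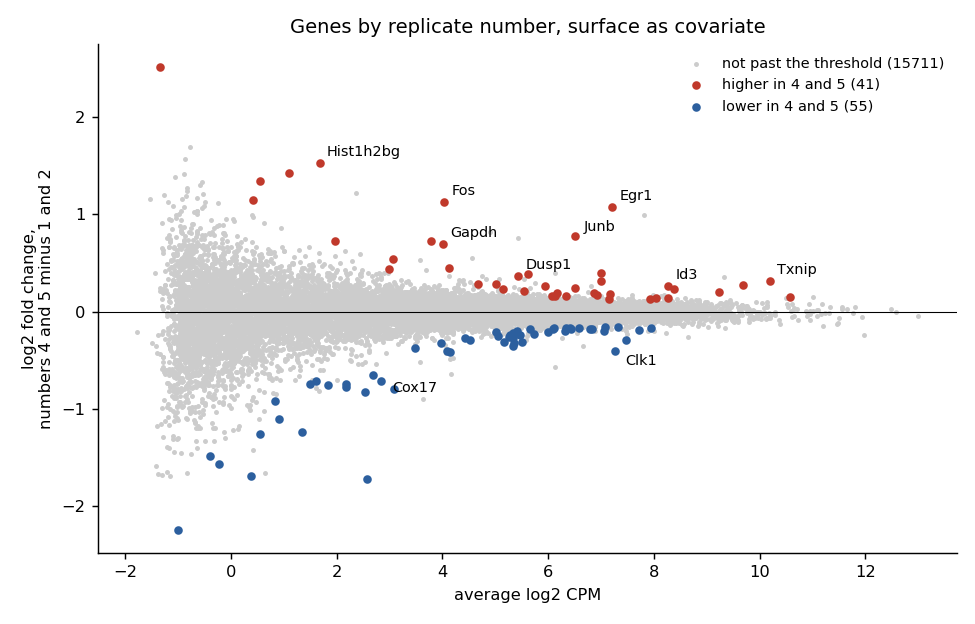
Average log2 CPM (horizontal) against the log2 fold change of numbers 4 and 5 minus 1 and 2 (vertical) for 15807 genes. Of the coloured genes 41 lie above 0 and 55 below, and most lie close to the grey background.

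The 5 libraries numbered 3 and 6 took no part in the test and were examined at the 96 called genes. In these genes number 6 minus number 3, averaged over RT and HF, had the sign of the tested difference in 82 of 96 (85.4%), against 51.3% of all genes tested. Within RT alone it was 78 of 96 and within HF 75 of 96. Among the 41 genes called higher the median difference of number 6 from number 3 was 0.13 on the log2 scale, and among the 55 called lower it was -0.12. A score for each library, the mean log2 CPM of the higher genes minus that of the lower genes after centring each surface on its libraries numbered 1, 2, 4 and 5, was computed for all 17. It was 0.15 in NT3, 0.07 in RT3 and 0.12 in HF3, between the values of numbers 2 (-0.31 to -0.27) and 4 (0.36 to 0.43). It was 0.50 in RT6 and 0.49 in HF6, within the range of numbers 4 and 5 (0.36 to 0.66). The scores of numbers 1, 2, 4 and 5 were fixed by the choice of genes and are given only as a scale, with number 1 at -0.77 to -0.62. Number 3 lay between the class means in 93 of the 96 called genes, against 36.3% of all genes tested. Genes with well separated class means leave more room for number 3 between them, so that difference in share is not a test.

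**Figure D2:**
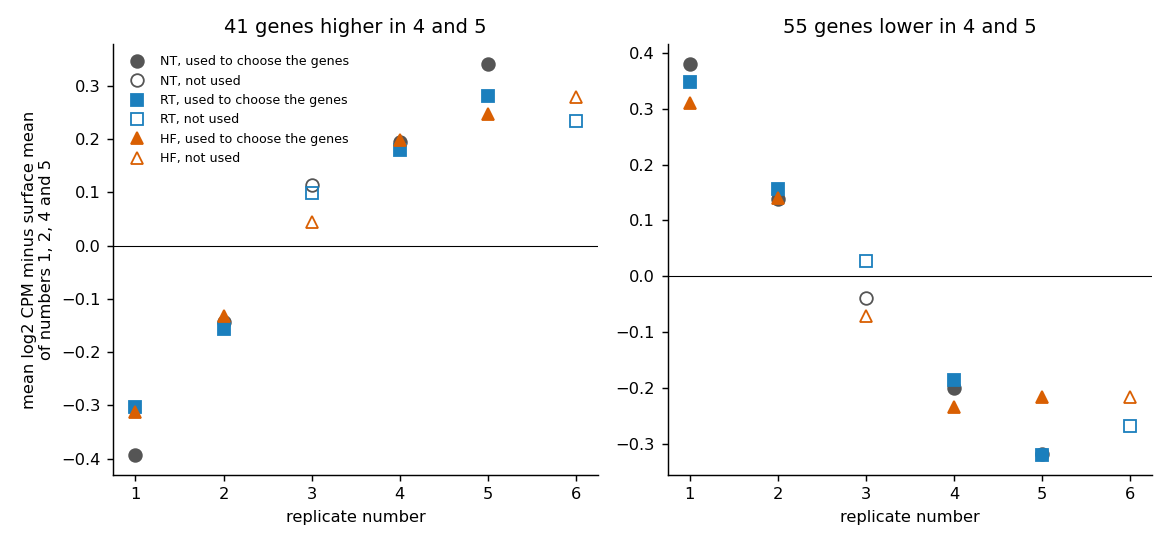
Mean log2 CPM relative to the surface mean (vertical) by replicate number (horizontal), for the 41 genes higher (left) and the 55 genes lower (right) in numbers 4 and 5, with each point 1 library. Open symbols are the libraries not used to choose the genes: number 3 lies between numbers 2 and 4, and number 6 beside numbers 4 and 5.

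Among 25 tested immediate early genes, 5 rose in the libraries numbered 4 and 5 and none fell, 21 had positive differences, and the median log2 difference was 0.21, against 0.004 over all genes tested. Of all genes tested, 0.259% rose, 0.348% fell and 51.7% had positive differences. Fos, which encodes a subunit of the AP-1 transcription factor, had CPM of 5.67 and 8.46 in NT1 and NT2, 14.3 and 20.5 in NT4 and NT5. On RT they were 8.42 and 12.2 in numbers 1 and 2 and 19.5 and 23.7 in numbers 4 and 5. On HF they were 9.45 and 16.6 against 25.6 and 28.2. Numbers 4 and 5 were above numbers 1 and 2 on every surface, while the ranges over surfaces overlapped, with NT low throughout. Its log2 fold change was 1.12 ± 0.17 (SE; edgeR adjusted p = 0.0209). The libraries outside the test had 10.4 CPM in NT3, 18.6 in RT3, 24.4 in HF3, 27.4 in RT6 and 31.2 in HF6. Egr1, a zinc finger factor of the same class, had 58.7 and 81.5 CPM in NT1 and NT2 and 117 and 168 in NT4 and NT5. On RT it had 79.1 and 116 against 186 and 236, and on HF 89.3 and 144 against 238 and 255. Its log2 fold change was 1.08 ± 0.17 (SE; edgeR adjusted p = 0.0393), with numbers 4 and 5 again above 1 and 2 on all 3 surfaces.
Junb, an AP-1 subunit, had 44 and 62.9 CPM in NT1 and NT2, 85.9 and 106 in NT4 and NT5, 60.7 and 76.7 in RT1 and RT2, and 113 and 130 in RT4 and RT5. On HF it had 72.3 and 86.8 against 122 and 129, and its log2 fold change was 0.77 ± 0.11 (SE; edgeR adjusted p = 0.0250). Ier3, an early response gene that acts on survival signalling, had a mean of 42.2 ± 5.16 CPM in numbers 1 and 2 and 55.3 ± 3.64 in numbers 4 and 5 (SD, n = 6 each), with no overlap between the sides. Its log2 fold change was 0.39 ± 0.06 (SE; edgeR adjusted p = 0.00482). Jun, the partner of Fos in AP-1, changed by 0.26 ± 0.05 (SE; edgeR adjusted p = 0.0152), from 55.4 ± 8.32 to 66.4 ± 9.83 CPM. The calls of these genes differed in how much they rested on single libraries. The call of Egr1 held without NT4 or HF2 and was lost in the other 10 single removals (adjusted p up to 0.129). That of Fos was lost without RT1, RT5 or HF5 (up to 0.0833), that of Junb without NT5, RT1, RT5, HF1 or HF5 (up to 0.0875), and that of Jun without RT1 or RT5 (up to 0.0833). Ier3 kept its call in all 12 but lost it without all 3 libraries numbered 5 (adjusted p = 0.385) and for numbers 1 to 3 against 4 to 6 (0.0535). Without number 5 the other 4 lost theirs too (up to 0.486), Egr1 and Jun also did without number 1 (0.252 and 0.217), and Egr1, Junb and Jun without number 4 (up to 0.0728).

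**Figure D3:**
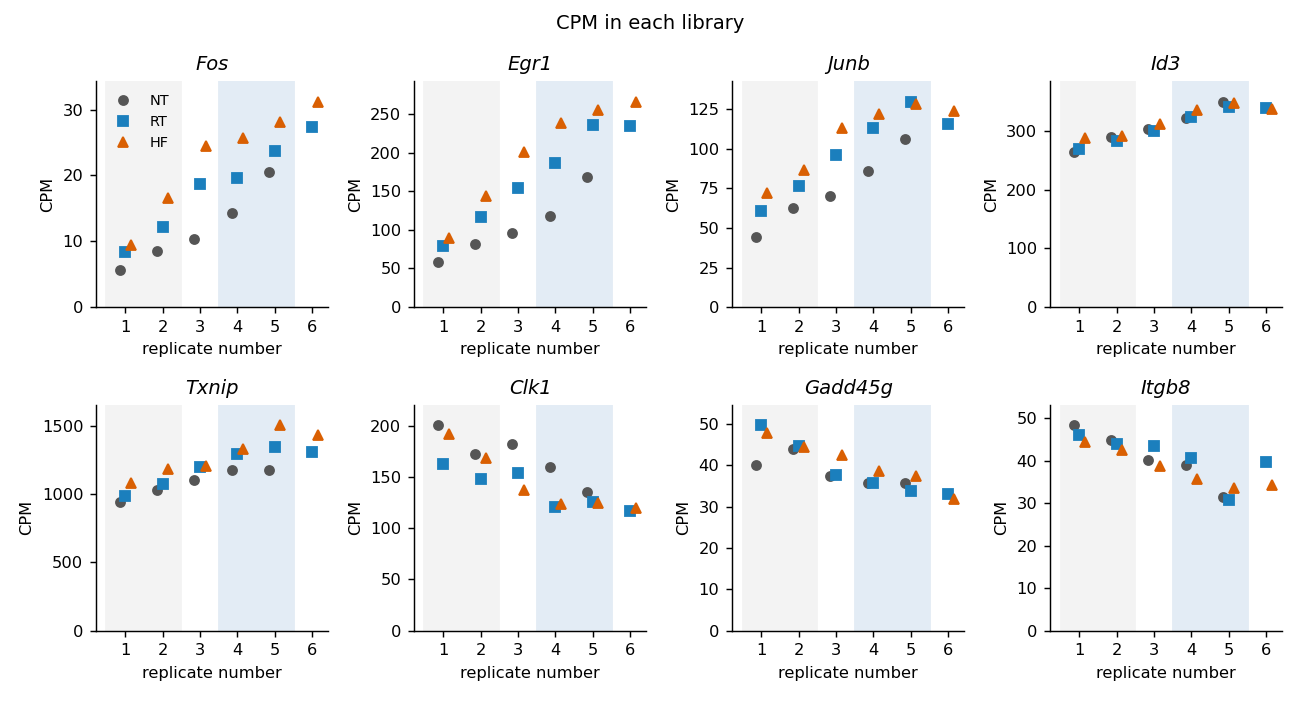
CPM (vertical) of 8 genes in each of the 17 libraries by replicate number (horizontal), with grey and blue bands for the numbers compared. Fos, Egr1, Junb, Id3 and Txnip are higher on the blue band and Clk1, Gadd45g and Itgb8 on the grey band.

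Feedback and response genes of other pathways also held members that rose. Of 14 tested genes of feedback on the ERK kinase cascade, 2 rose and none fell, against 0.259% and 0.348% of all genes tested. Of their differences 9 were positive, and the median was 0.08, against 0.004 over all genes tested. Dusp1, a phosphatase of JNK, p38 and ERK, had 37.5 ± 6.33 CPM in numbers 1 and 2 and 48.3 ± 7.07 in numbers 4 and 5 (SD, n = 6 each). It separated the sides on all 3 surfaces, with a log2 fold change of 0.36 ± 0.05 (SE; edgeR adjusted p = 0.000423), and held its call in all 12 single removals but not without number 1 (adjusted p = 0.0526), without number 5 (0.0649) or without the surface term. Dusp6, which acts on ERK, changed by 0.29 ± 0.06 (SE; edgeR adjusted p = 0.00992). Its call was lost without HF5 (adjusted p = 0.0536), without number 1 (0.259) and without number 5 (0.315). It was also lost without the surface term and for numbers 1 to 3 against 4 to 6. Of 21 genes of the TGF-beta and BMP response, 3 rose and none fell, while 11 differences were positive and the median was 0.02 (-0.02 without RT4, -0.001 without HF5). Id3, which binds basic helix-loop-helix factors and blocks their contact with DNA, had 265 and 289 CPM in NT1 and NT2, 270 and 284 in RT1 and RT2, and 288 and 293 in HF1 and HF2. In numbers 4 and 5 it had 323 and 351 on NT, 324 and 341 on RT, and 336 and 348 on HF, so the sides did not overlap. Its log2 fold change was 0.26 ± 0.03 (SE; edgeR adjusted p = 4.68e-05), a call held in all 12 single removals and without any 1 number. Id1, its relative, changed by 0.40 ± 0.07 (SE; edgeR adjusted p = 0.0271), with NT1 at 79.3 CPM below the other 5 low-numbered libraries (112 to 125). Smad7, the inhibitory SMAD, changed by 0.19 ± 0.04 (SE; edgeR adjusted p = 0.0268). Single removals ended the call of Id1 without NT4, NT5, RT1, RT5, HF1, HF2 or HF5 (adjusted p up to 0.120) and that of Smad7 without NT1, NT5, RT1, RT2, RT4, RT5, HF1 or HF5 (up to 0.121).

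Of 17 circadian clock genes 3 rose and none fell, against 0.259% and 0.348% of all genes tested. Their differences were positive in 12, with a median of 0.08. Bhlhe40, a repressor of the clock's transcription loop, had a mean of 83.5 ± 6.06 CPM in numbers 1 and 2 and 98.8 ± 2.44 in numbers 4 and 5 (SD, n = 6 each), without overlap. The log2 fold change was 0.24 ± 0.04 (SE; edgeR adjusted p = 0.00228). Per3, a period protein, changed by 0.19 ± 0.04 (edgeR adjusted p = 0.0209) and Nr1d1, the nuclear receptor REV-ERB alpha, by 0.17 ± 0.04 (edgeR adjusted p = 0.0296). The call of Per3 was lost without NT2, RT1 or HF1 (adjusted p up to 0.0900) and that of Nr1d1 without NT1, NT4, NT5, RT1, RT5, HF1, HF4 or HF5 (up to 0.131), while Bhlhe40 kept its call in all 12 but not without number 1 (adjusted p = 0.186) or 5 (0.119). Of 13 acute phase and gp130 genes 1 rose, Socs3, an inhibitor of cytokine receptor signalling, by 0.21 ± 0.05 (SE; edgeR adjusted p = 0.0393). Its call was lost without NT2, NT4, NT5, RT1, RT5, HF1, HF2, HF4 or HF5 (adjusted p up to 0.155). Clcf1, a cytokine that signals through gp130 and was chosen after its values were seen, changed by 0.23 ± 0.04 (SE; edgeR adjusted p = 0.00473), from 306 ± 25.7 to 359 ± 20.2 CPM without overlap. Its call was lost without number 1 (adjusted p = 0.0662) and for numbers 1 to 3 against 4 to 6 (0.101).

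Other higher genes had several roles. Txnip, which binds thioredoxin and is induced by glucose, had 939 and 1032 CPM in NT1 and NT2, 982 and 1074 in RT1 and RT2, and 1083 and 1181 in HF1 and HF2. In numbers 4 and 5 it had 1179 and 1175 on NT, 1295 and 1344 on RT, and 1327 and 1503 on HF. It was higher on each surface, with a log2 fold change of 0.31 ± 0.04 (SE; edgeR adjusted p = 3.61e-05), and overlapped across surfaces only through NT. H3f3b, which encodes the replication-independent histone H3.3, changed by 0.27 ± 0.04 (SE; edgeR adjusted p = 0.00228), a call lost without NT5 (adjusted p = 0.0601), number 1 (0.0924) or number 5 (0.530). Both were chosen after their values were seen. Hist1h2bg, a replication-dependent H2B gene whose messages normally lack a poly-A tail, had 1.53 ± 0.402 CPM in numbers 1 and 2 and 4.43 ± 0.820 in numbers 4 and 5 (SD, n = 6 each), with no overlap. The fitted log2 fold change was 1.53 ± 0.17 (SE; edgeR adjusted p = 8.41e-06), and 44.9% of its 100-base windows also occur in 13 other genes. It was the 1 that edgeR called of 20 tested genes in a list meant for replication-dependent histones, while DESeq2 and limma voom called 2 each. That list also holds H1f0, a replication-independent histone gene. Gapdh, the glycolytic enzyme, changed by 0.70 ± 0.09 (SE; edgeR adjusted p = 0.000302), from 12 ± 1.40 to 19.6 ± 3.01 CPM. These levels lie far below those of Pkm, also a glycolytic gene, at 1087 ± 47.6 and 1162 ± 62.6 CPM (SD, n = 6 each). Gapdh shares 18.2% of its windows with 74 other annotated genes, so how the counting divided its reads is uncertain. The change of the counted reads may not be that of its whole message. Its NT3 value was 97.5 CPM against 10.5 to 23.3 in the other 16 libraries, and its call did not hold in the 3 alternatives that used all 17 libraries (adjusted p up to 0.999).
Hoxa9, a homeobox factor, changed by 0.32 ± 0.05 (SE; edgeR adjusted p = 0.00767), a call lost without NT5 (adjusted p = 0.112), number 1 (0.250) or number 5 (0.122). Carmn, the long noncoding host of the microRNAs miR-143 and miR-145, changed by 0.54 ± 0.11 (SE; edgeR adjusted p = 0.00924). Its call was lost without HF1 (adjusted p = 0.0512), number 1 (0.243) or number 5 (0.344). Rbpms2, an RNA-binding protein, changed by 0.44 ± 0.10 (SE; edgeR adjusted p = 0.0272) and mt-Tw, the mitochondrial tryptophan transfer RNA, by 1.43 ± 0.30 (SE; edgeR adjusted p = 0.0337). These last calls were lost in 7 of 12 single removals each (adjusted p up to 0.0961 and 0.115): Rbpms2 without NT1, NT5, RT1, RT4, RT5, HF1 or HF4, and mt-Tw without NT4, NT5, RT1, RT5, HF1, HF4 or HF5. The level of mt-Tw was low. It had 1.08 ± 0.583 CPM in numbers 1 and 2 and 2.88 ± 0.844 in numbers 4 and 5 (SD, n = 6 each). Its annotated gene is 67 bases long, against reads of 150 bases. The counted reads may therefore not be those of the transfer RNA alone.

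Among the genes that fell, the kinase Clk1, which phosphorylates SR splicing factors, had 200.3 and 173 CPM in NT1 and NT2 and 159.6 and 136 in NT4 and NT5. On RT it had 163 and 148 against 121 and 126, and on HF 192 and 169 against 124 and 124. The estimated log2 change was -0.40 ± 0.05 (SE; edgeR adjusted p = 0.00228), with the sides apart on every surface. The call was lost without NT5 (adjusted p = 0.0546), without number 5 (0.385) and without the surface term. Its relative Clk4, chosen after its values were seen, changed by -0.21 ± 0.05 (SE; edgeR adjusted p = 0.0291), a call lost without NT1, RT1, RT2, RT4, RT5, HF1, HF4 or HF5 (adjusted p up to 0.119). Gadd45g, a stress-induced growth regulator, had 40.1 to 49.7 CPM in numbers 1 and 2 and 33.8 to 38.6 in numbers 4 and 5. The log2 fold change was -0.32 ± 0.05 (SE; edgeR adjusted p = 0.000839), and number 6 had 33 CPM on RT and 31.9 on HF. Itgb8, an integrin chain that activates latent TGF-beta, had 42.5 to 48.3 CPM in numbers 1 and 2 and 30.7 to 40.7 in numbers 4 and 5. The fitted log2 fold change was -0.36 ± 0.06 (SE; edgeR adjusted p = 0.00367), and it was the 1 of 31 focal adhesion and integrin genes that fell, with none that rose. Gadd45g and Itgb8 did not overlap between the sides and kept their calls in all 12 single removals. Without number 5 both calls were lost (adjusted p = 0.0510 and 0.199), and that of Itgb8 also without number 1 (0.171).
Cox17, a copper chaperone of cytochrome c oxidase, had 6.61 to 12.2 CPM in numbers 1 and 2 and 4.96 to 6.17 in numbers 4 and 5, a log2 fold change of -0.71 ± 0.13 (SE; edgeR adjusted p = 0.00559). Mylip, a ubiquitin ligase of the LDL receptor, changed by -0.32 ± 0.06 (SE; edgeR adjusted p = 0.00630), and Fam126b by -0.31 ± 0.05 (SE; edgeR adjusted p = 0.00299). These 3 also kept their calls in all 12 single removals. Cox17 lost its call without number 1 (adjusted p = 0.337), 4 (0.0626) or 5 (0.243), Fam126b without number 1 (0.249) or 5 (0.103), and Mylip for numbers 1 to 3 against 4 to 6. Nfkbiz, an atypical member of the I-kappa-B family, changed by -0.30 ± 0.05 (SE; edgeR adjusted p = 0.0132). Its call was lost without RT5 (adjusted p = 0.0715), number 1 (0.133) or number 5 (0.385). It was the 1 of 17 inflammatory and NF-kB genes that passed, against 0.607% of all genes tested. The zinc finger genes Zfp866 (-0.27), Zfp719 (-0.32) and Zbtb34 (-0.27), the small GTPase Arl5b (-0.29) and Armc7 (-0.37) were also lower on the log2 scale. Zfp866 kept its call in all 12 but not without number 1 (adjusted p = 0.0528) or 5 (0.266). Zfp719 and Armc7 lost it in 9 (adjusted p up to 0.140 and 0.149), Zbtb34 in 10 (up to 0.129) and Arl5b in 6 (up to 0.0988). All 4 lost it without NT1, RT1, RT5, HF1 or HF5. Arl5b lost it also without NT5, Zfp719 without NT5, RT2, RT4 or HF4, Zbtb34 without NT2, NT5, RT2, RT4 or HF2, and Armc7 without NT4, RT2, RT4 or HF2. The growth factor receptor Egfr (-0.19), the transcription factors Cebpg (-0.20) and Trps1 (-0.26) were chosen after their values were seen. Cebpg kept its call in all 12 but not without number 2 (adjusted p = 0.101) or 5 (0.0649). Trps1 lost its call without RT1 (adjusted p = 0.0710), number 1 (0.222) or number 5 (0.315). Egfr lost its call without NT1, NT5, RT1, RT2, RT4, RT5, HF1 or HF5 (adjusted p up to 0.151).

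Whether the number difference itself varied with the surface was tested as an interaction. edgeR called 0 of 15807 genes (0% of those tested), with 583 (3.69%) at an unadjusted p under 0.05, limma voom called 0 and DESeq2 called 1, Plau (adjusted p = 0.00108), the urokinase plasminogen activator. Plau was named from that count, its log2 differences were -0.37 on NT, -0.78 on RT and 0.29 on HF, and its edgeR adjusted p was 0.9999. Leaving out single libraries gave 1 call (NT1 or RT4), 2 (HF5), 4 (NT5), 10 (NT2) or 25 (NT4), and 0 for the other 6. The genes named by size had the same sign on the 3 surfaces by the rule that chose them. The other named genes, Id3 among them, were not chosen by sign. Fos differed by 1.31 on NT, 1.07 on RT and 1.04 on HF on the log2 scale, Egr1 by 1.03, 1.11 and 1.08, and Id3 by 0.28, 0.27 and 0.24. Less even were Mylip, at -0.52 on NT, -0.34 on RT and -0.09 on HF, and Carmn, at 0.63, 0.23 and 0.79, but neither passed the interaction test. Dhrs11, a dehydrogenase with the smallest interaction p of edgeR, differed by -0.16, -0.29 and 0.45 (edgeR adjusted p = 0.182).

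**Figure D4:**
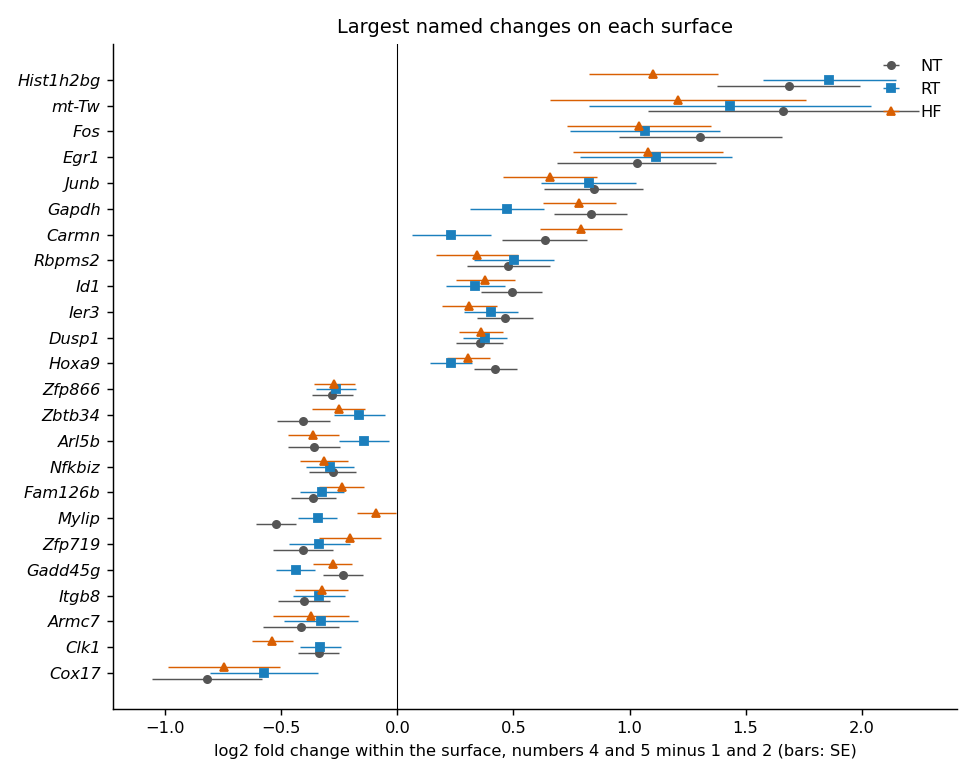
Log2 fold change of numbers 4 and 5 minus 1 and 2 (horizontal, bars: SE) within NT, RT and HF for the 24 genes named by size (vertical). Signs are the same on the 3 surfaces by the rule of choice, and Mylip on HF lies closest to 0.

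Counts of list members called are those of edgeR where no tool is named. DESeq2 and limma voom each called 7 of 25 immediate early genes as higher. Of 17 clock genes limma voom called 2, and it called none of the acute phase or podocyte genes. Among all 15807 genes tested, DESeq2 called 50 higher and 78 lower, and limma voom 37 and 36. The other lists held few or no calls. Over all genes tested, edgeR called 0.259% higher and 0.348% lower. At an unadjusted edgeR p under 0.05, 5.61% were higher and 6.1% lower, and 51.7% of all differences were positive. Of 35 type I interferon response genes edgeR, DESeq2 and limma voom each called 0, and 5 had an unadjusted edgeR p under 0.05, all higher. Their differences were positive in 27, with a median of 0.16 that came to 0.32 on NT, 0.01 on RT and -0.02 on HF. Relative to the surface mean, the median of these genes was -0.32 in NT1, -0.03 in NT2, -0.12 in NT4 and 0.43 in NT5. The difference on NT therefore rested on a low NT1 and a high NT5, while NT4 lay below NT2. Ddx60, a helicase of that response, was at 5.97 ± 1.37 and 7.82 ± 1.89 CPM (SD, n = 6 each; edgeR adjusted p = 0.210). Of 7 MHC class II presentation genes none was called by the 3 tools, 1 had an unadjusted p under 0.05, and the median was 0.24. Of 85 cytosolic ribosomal protein genes none was called by the 3 tools, while 29 were higher and 1 lower at an unadjusted edgeR p under 0.05. Their median was 0.08, and 75 were positive. Rpl19 was at 278 ± 13 and 305 ± 17.7 CPM (edgeR adjusted p = 0.102), with 61% of its windows shared with 5 other genes. Of 34 cell division genes none was called by the 3 tools, 1 had an unadjusted p under 0.05, and the median was 0.05, or -0.03 for numbers 1 to 3 against 4 to 6. Of 12 mitochondrially encoded genes none was called by the 3 tools, 3 were lower at an unadjusted p under 0.05, and the median was -0.05, or -0.21 on NT, 0.03 on RT and -0.04 on HF.
Of 32 podocyte slit diaphragm and identity genes 1 rose and none fell, with 13 positive and a median of -0.02 (0.01 on RT). The gene that rose was Foxc1, a forkhead factor of kidney development, at 249 ± 15.8 and 275 ± 17.8 CPM, with a log2 fold change of 0.14 ± 0.03 (SE; edgeR adjusted p = 0.0414). Its call was lost without NT1, NT4, RT1, RT2, RT5, HF1 or HF5 (adjusted p up to 0.143). Wt1 was at 103 ± 7.66 and 106 ± 9.24 CPM (edgeR adjusted p = 0.721), Synpo at 267 ± 20.4 and 278 ± 16.4 (0.606), Podxl at 137 ± 8.79 and 131 ± 7.95 (0.495), and Nphs1 at 5.02 ± 0.717 and 4.26 ± 1.12 (0.478). Of 12 tubular epithelial markers none was called by the 3 tools, 1 was higher and 2 lower at an unadjusted edgeR p under 0.05, and the median was -0.08, or 0.004 without NT2. Within surfaces that median was -0.34 on NT, -0.20 on RT and 0.10 on HF. Lrp2, the endocytic receptor megalin, was at 437 ± 36 and 364 ± 55.2 CPM (SD, n = 6 each; edgeR adjusted p = 0.398).

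**Figure D5:**
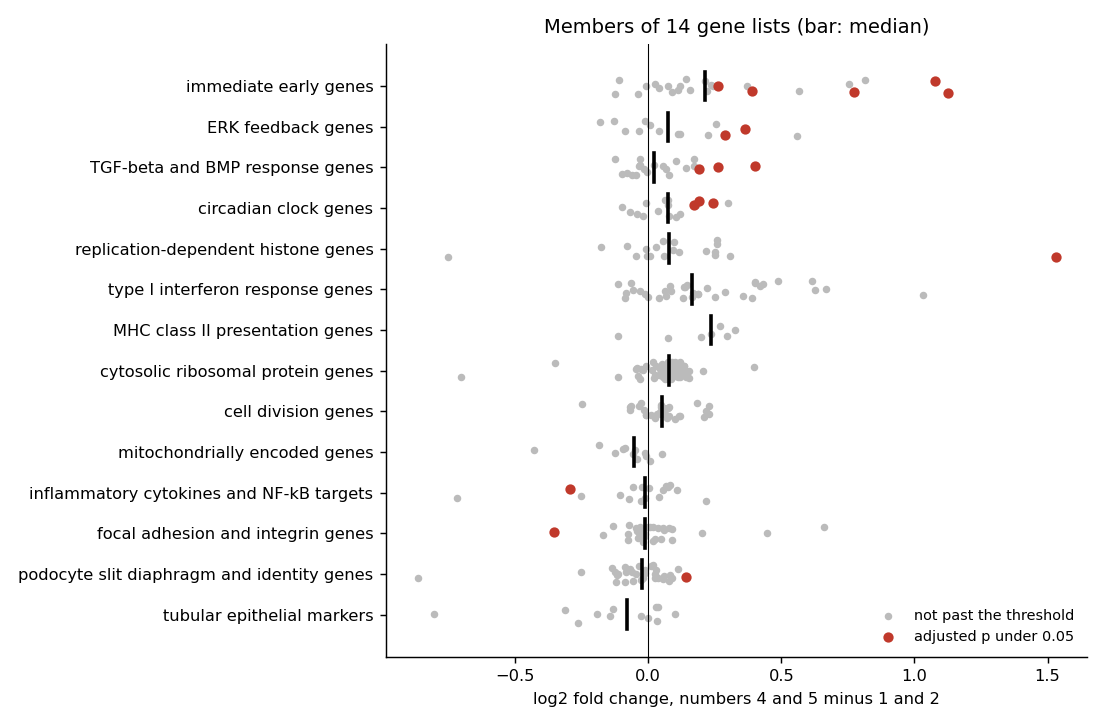
Log2 fold change of numbers 4 and 5 minus 1 and 2 (horizontal) for every tested member of 14 gene lists (vertical), with a bar at each list's median. Red points passed an adjusted p of 0.05: 5 in the immediate early list, 3 each in the clock and the TGF-beta and BMP lists, and 2 in the ERK feedback list.

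Gene class, length and GC content of the called genes are given as descriptions, and the difference between the directions was not tested. Of those with an annotation, 33 of 40 higher genes were protein coding and 36 of 54 lower ones, against 80.4% of all annotated genes tested. The lower set held 9 genes of the class TEC, unspliced models that await experimental support, and 7 lincRNA genes. The higher set held 1 and 2, and the 15504 annotated genes tested held 591 and 380. All 9 TEC genes of the lower set lie inside a coding gene, as do 433 of the 591 TEC genes tested, and the library preparation did not keep strand, so their reads cannot be told apart from unspliced reads of the host gene. Coding genes called lower had a median transcript length of 6468.5 bases and a GC content of 43.8%, and those called higher 2796 bases and 55.6%, against 3424 bases and 49.8% over all coding genes tested. Across the 9720 coding genes whose mean log2 CPM reached 3, the log2 fold change had a Spearman correlation of -0.41 with transcript length and 0.29 with GC content. Genes are not independent replicates and share these 12 libraries, so no p is given. The correlation with length was -0.46 within NT, -0.25 within RT and -0.09 within HF, and that with GC content 0.31, 0.06 and 0.21. In number 6 minus number 3 the correlation with length was 0.20, of the opposite sign, and that with GC content was -0.02. Cut by length into 4 groups of 2430 genes, the shortest had a median difference of 0.04 and the longest of -0.04. The part of length and GC content in the calls was not tested.

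Number class entered the surface contrasts of the same 12 libraries as an added term. With it edgeR called 141 genes between HF and NT, 25 between HF and RT and 327 between RT and NT. Without it the counts were 87, 19 and 228. The common biological coefficient of variation was 0.0573 with the term and 0.0630 without.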

How the data were processed

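The deposited table holds raw counts per gene for 17 libraries. The labels' protocol selects poly-A RNA on oligo-dT beads and makes libraries that do not keep strand. The submitters' processing notes name CASAVA, HISAT2 (version 2.0.5) and featureCounts (version 1.5.0-p3), with the builds GRCm39 and mm39. How the authors filtered their counts is not given in the sources used here. Genes with a symbol numbered 52073, and 0.58% of counts fell in genes without one.

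The libraries numbered 4 and 5 were compared with those numbered 1 and 2 in edgeR 4.0.16 (R 4.3.3): filterByExpr, TMM scaling, a robust quasi-likelihood fit with surface as covariate, and Benjamini-Hochberg adjustment over all genes tested at a threshold of 0.05. DESeq2 1.42.0 and limma voom 3.58.1 were alternatives, with other scalings, filters, number classes and single-library removals. CPM and log2 CPM (prior count 2) were scaled over all 17 libraries. Biotypes, lengths and GC content came from GENCODE M21 (GRCm38), matched by gene ID, and figures from matplotlib 3.10.9. The script for the tests was checked on simulated counts.

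The samples, gene lists and tests were chosen with earlier results of these data known, so the p-values are not independent evidence. Named by size were the 12 largest rises and 12 largest falls among calls whose mean log2 CPM reached 1, with an ordinary symbol and 1 sign on all surfaces. Up to 4 members of each described list with the smallest p, 4 genes by interaction p and 4 podocyte genes could also be named. Genes added later are marked. All 41 lists written had tested members, and 16 are described. Of 20 YAP and TAZ targets edgeR called 1, of 20 SRF and MRTF targets 0, and of 18 cell cycle inhibitors and p53 targets 1. In the same lists DESeq2 called 2, 0 and 1, and limma voom 2, 0 and 0. Over all 15807 genes tested, edgeR called 96, DESeq2 128 and limma voom 73.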

Additional observations from a re-analysis of the deposited data

Results flagged for a closer look

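Among 106 groups of 6 CPM values (53 genes, the libraries numbered 1 and 2 or 4 and 5), 7 held a library whose gap to its nearest neighbour exceeded Dixon's critical value of 0.625 of the range. Chance flags about 1 group in 20. In numbers 1 and 2, Id1 was at 79.3 CPM in NT1 against 112 to 125 in the other 5 libraries. Nphs1 was at 6.43 CPM in HF2 against 4.40 to 4.98, and Trps1 at 47.3 CPM in RT1 against 39.3 to 42.0. In numbers 4 and 5, Bhlhe40 was at 103.6 CPM in HF5 against 97.1 to 98.8. Amotl2, a YAP target and angiomotin family member, was at 1747 CPM in NT4 against 1570 to 1626. Nfkbiz was at 195 CPM in NT4 against 148 to 156, and Ddx60 at 11.5 CPM in NT5 against 6.48 to 7.89. In the library NT3, which took no part in the test, Gapdh was at 97.5 CPM against 10.5 to 23.3 in the other 16 libraries.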

How the results depend on the processing

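The count of 96 called genes was 91 with RLE scaling, 101 with total counts, 128 with DESeq2, 73 with limma voom and 91 for numbers 1 to 3 against 4 to 6. It was 303 with no filter beyond 1 count and 49 without a surface term. Leaving out each library gave 35 to 121. Alternatives chosen after seeing the data gave 27 without number 1, 256 without number 4, 8 without number 5 and 221 with the number as a linear term (84 shared). For 42 named genes that passed, 21 did so without a surface term, 24 for numbers 1 to 3 against 4 to 6, 21 to 37 without each library, 12 without number 1 and 7 without number 5. List members called, 25 in all, were 59 without the filter, 9 without the surface term and 11 to 25 without each library. The interaction count of 0 was 15 without the filter, 1 with DESeq2 and 0 to 25 without each library. The share of called genes with a like sign in number 6 minus number 3 was 96.7% (29 of 30) at a log2 difference of at least 0.5. The 53 genes examined kept their sign in every alternative, while the medians of 6 of the 16 described lists changed sign in at least 1 (acute phase, inflammatory, focal adhesion, TGF-beta and BMP, cell division and tubular). The cause of these differences was not tested.

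Replicate numbers are the contrast here, so the replicate block fit gave each number its own level over all 17 libraries. It called 227 genes (94 shared with the 96) and 38 list members, and ended the call of Gapdh, 1 of the 42 named genes. Deviations of same-numbered libraries from their surface means correlated at a median of 0.04 (-0.02 to 0.19 over 16 pairs), against -0.01 for 80 pairs of different number. Only 3 of the 16 pairs exceeded 0.1, and 7 of 17 libraries correlated best with their own number.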

Other observations

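Calls outside the described lists and the rule for names are given as values of single genes, each chosen after its values were seen. On the log2 scale Ube3a, a ubiquitin ligase, was lower in numbers 4 and 5 by a difference of -0.18, the F-box gene Fbxo30 by -0.24, Fem1c by -0.17 and the RING finger gene Rnf169 by -0.17. Kdm2a, a histone demethylase, differed by -0.17 and Tet3, a methylcytosine dioxygenase, by -0.18. Acvr2a, an activin receptor, differed by -0.21 and Zfyve9, which presents SMAD proteins to receptors of the TGF-beta family, by -0.20. Among higher calls the microRNA gene Mir145a differed by 1.34 in libraries selected for poly-A RNA, beside its host Carmn at 0.54. Mir17hg, host of the miR-17 cluster, differed by -0.92. Each had an edgeR adjusted p under 0.05. No theme among them was tested.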
